A study of Mus musculus with 8 samples.

Results

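The genes described here carry out or mark the unfolded protein response of the endoplasmic reticulum (ER) and the integrated stress response. They were chosen by name, with earlier results of these data known, as 35 genes in 4 roles. All 35 were among the 28918 genes of the expression table. Of these, 34 passed a filter of a mean of at least 1 TPM over the tumors (a transcript level scaled to gene length and to the library's total), which 13726 genes passed in all. The samples were whole subcutaneous tumors of B16mhgp100, a line of the mouse B16 melanoma, grown in C57BL/6 mice. In the Colq group the tumor cells over-expressed Colq, which encodes the collagen tail that anchors acetylcholinesterase. In the Vector group they carried the vector alone. Both groups received anti-PD1 antibody, 200 µg a dose, in 4 doses at 2 per week beginning 10 days after the cells were injected, and the harvest followed the last dose by 1 day, so no untreated tumor was compared. Each of the 3 Colq tumors gave 1 library, and the 3 Vector tumors gave 5, since 2 Vector tumors were sequenced as 2 portions each. Portions were averaged so that n was 3 tumors a group. The promoter of the construct, the ages of the mice and whether each line was 1 clone are not stated in the labels, nor is it stated that each tumor came from a separate mouse, so the p-values measure the spread between these tumors.

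When proteins fold poorly in the ER, the chaperone Hspa5 (BiP) leaves the sensors Ern1 (IRE1), Eif2ak3 (PERK) and Atf6. Ern1 splices the mRNA of the transcription factor Xbp1, Atf6 is cut to release a transcription factor, and both raise chaperones and the machinery that draws misfolded proteins out of the ER for degradation. Eif2ak3 and other kinases phosphorylate the initiation factor eIF2, which slows general translation, favors translation of Atf4 mRNA and, through Atf4, raises genes of amino acid supply, redox balance and cell death. Much of this control is exerted on splicing, cleavage and translation, which a transcript level does not show.

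The 2 arms are read through different promoter elements. The ER stress response element (ERSE) is bound by NF-Y at its left side and by Atf6 or spliced Xbp1 at its right side, and the composite C/EBP-Atf element (CARE) is bound by Atf4 with a partner. Promoter windows of 250 bases before to 50 bases after the transcript start were taken from RefSeq on build GRCm38.p6, for which 31 of the 35 genes matched; Manf, Hyou1, Atf6 and Derl1 had no match. ERSE, searched as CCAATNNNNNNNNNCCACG on both strands, was in 8 of the 33 windows of these genes (24.2%) and in 39 of all 32851 windows (0.119%). The ERSE copies are shown because they mark the chaperone arm, with the fixed letters in capitals and read on the strand of the element:
Hspa5: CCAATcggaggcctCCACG
Hsp90b1, far copy: CCAATcgcaaggagCCACG
Hsp90b1, near copy: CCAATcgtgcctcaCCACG
Canx: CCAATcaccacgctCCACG
Pdia6: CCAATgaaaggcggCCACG
Dnajc3: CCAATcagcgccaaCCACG
Creld2: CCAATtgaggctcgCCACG
Syvn1: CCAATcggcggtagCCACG
Derl3: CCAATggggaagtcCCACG

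The shorter ERSE II, ATTGGNCCACG, was in the windows of Dnajb11 and Herpud1, 6.06% of these genes' windows against 0.0365% of all. CARE, searched as TGATGNAA, was in the windows of Asns, Atf3, Chac1, Trib3 and Herpud1, 15.2% against 3.97% of all windows. The core TGACGTGG of the unfolded protein response element was in none of the 33 windows and in 0.676% of all. All were searched on both strands, and no match in these genes' windows overlapped another motif. A match is a run of letters and no evidence of binding. The 220 bases just before the start are shown for 4 genes that carry the contrast between the arms. They are a chaperone with 1 exact ERSE match, a chaperone with 2, an Atf4 target matching CARE alone, and Herpud1, which matches ERSE II and CARE. Only exact matches were counted, so near copies of an element, such as one upstream in Hspa5, are not marked. Capitals mark the fixed letters of ERSE and the whole match, variable letter included, of ERSE II and CARE, on either strand. The windows lay at chr2:34771840-34772139 on the plus strand for Hspa5, chr10:86705395-86705694 on the minus strand for Hsp90b1, chr6:7693160-7693459 on the minus strand for Asns and chr8:94386179-94386478 on the plus strand for Herpud1.
Hspa5: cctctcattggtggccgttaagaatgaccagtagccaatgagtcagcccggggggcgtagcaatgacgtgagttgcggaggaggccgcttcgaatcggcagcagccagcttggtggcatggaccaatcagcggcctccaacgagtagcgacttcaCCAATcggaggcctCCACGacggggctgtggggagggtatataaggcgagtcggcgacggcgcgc
Hsp90b1: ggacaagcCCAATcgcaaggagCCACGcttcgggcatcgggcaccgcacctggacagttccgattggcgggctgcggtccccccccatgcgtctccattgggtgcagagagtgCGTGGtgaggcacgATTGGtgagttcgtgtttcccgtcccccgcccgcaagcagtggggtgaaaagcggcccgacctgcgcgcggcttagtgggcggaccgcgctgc
Asns: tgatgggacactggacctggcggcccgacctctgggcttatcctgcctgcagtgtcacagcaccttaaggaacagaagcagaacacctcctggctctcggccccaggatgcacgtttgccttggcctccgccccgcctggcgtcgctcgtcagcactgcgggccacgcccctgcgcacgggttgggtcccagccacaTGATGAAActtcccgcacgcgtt
Herpud1: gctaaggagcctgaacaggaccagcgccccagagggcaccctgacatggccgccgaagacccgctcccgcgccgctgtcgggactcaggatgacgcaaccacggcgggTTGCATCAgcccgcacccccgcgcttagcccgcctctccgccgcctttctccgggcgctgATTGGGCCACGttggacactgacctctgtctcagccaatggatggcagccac

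Colq itself stood at 4.05, 5.03 and 3.86 TPM in the Colq tumors, against 0 to 0.24 TPM in the Vector libraries, and 19887 to 21602 genes were above 0 per library. The 3 Colq libraries were close to each other, with a median SD over tested genes of 0.094 on the log2(TPM + 1) scale over the Colq tumors and 0.141 over the Vector tumors. Most genes had fewer TPM in Colq tumors: over all tested genes the log2 fold change had a median of -0.50. After scaling by median-of-ratios size factors the median was -0.0013, a value fixed in advance, since that scaling centers the median. TPM is a share of all transcripts, so a gene's value also depends on what else is in the library. Markers of other cells differed between the groups, and their part in the results below was not tested. The 12 melanocyte markers summed to 12860 to 13250 TPM in Colq tumors, against 21120 to 25910 TPM in Vector tumors, and 9 of them fell. The 16 skeletal muscle markers summed to 933.8 to 951.5 TPM in Colq tumors, against 54.9 to 197.5 TPM in Vector tumors, and all 14 tested rose. The 12 macrophage markers summed to 1609 to 1660 TPM in Colq tumors, against 475.4 to 1176 TPM in Vector tumors. Of these 4 rose and 8 were not called on deposited TPM. After size factors 11 of the 12 macrophage markers rose, with a median log2 fold change of 1.16, where 28% of all tested genes rose. The calls of the other marker lists here are also on deposited TPM. Without Lyz2 the deposited macrophage sums were 739 to 787 TPM in Colq tumors, within the 308 to 880 TPM of the Vector libraries. The 8 endothelial markers summed to 103.1 to 112.1 TPM in Colq tumors, against 238.7 to 280.8 TPM in Vector tumors, and 6 of 7 tested fell. The 12 fibroblast markers summed to 442.4 to 473.9 TPM in Colq tumors, against 221.9 to 426.7 TPM in Vector tumors, with 6 higher, among them Dcn and Dpt, and 4 lower (Col1a1, Col1a2, Pdgfrb and Postn). The 14 plasma cell markers, of cells with a large ER, summed to 113.8 to 115.7 TPM in Colq tumors, against 29.7 to 62.8 TPM in Vector tumors. Of the 6 tested, Igkc, Ighm and Jchain rose and Sdc1 and Irf4 fell, and Jchain, Mzb1, Tnfrsf17, Iglc1, Iglc2, Pou2af1 and Fcrl5 were listed at 0 in at least 1 library. In such bulk samples, fewer cells of a type and less RNA per cell cannot be told apart.

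Of the 34 tested stress response genes, 30 fell in Colq tumors and none rose (limma, adjusted p under 0.05), which is 88.2% lower against 59.6% lower and 11.3% higher among all tested genes. At an unadjusted p under 0.05 the number that rose was also 0. On deposited TPM 30 had all 3 Colq tumors below all 3 Vector tumors, against 62.2% of all tested genes, and for those 30 every Colq library was also below every Vector library. The 35 genes together took 0.320%, 0.328% and 0.315% of all TPM in Colq tumors, against 0.523%, 0.513%, 0.541%, 0.548% and 0.606% in the Vector libraries. The median log2 fold change of the 34 was -0.82, and 26 of them lay below the median of all genes. After size factors, 17 of the 34 fell (50%, against 25.5% of all tested genes) and 4 rose (11.8%, against 28% of all). The 4 that rose on that scale were Manf, Derl2, Dnajb9 and Atf3. If the 3 close Colq libraries were averaged and counted as 1 sample, the median log2 fold changes stayed at -0.98 for chaperones and -0.74 for Atf4 targets. Averaging leaves them unchanged, so this says nothing of the spread between Colq tumors.

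**Figure D1:**
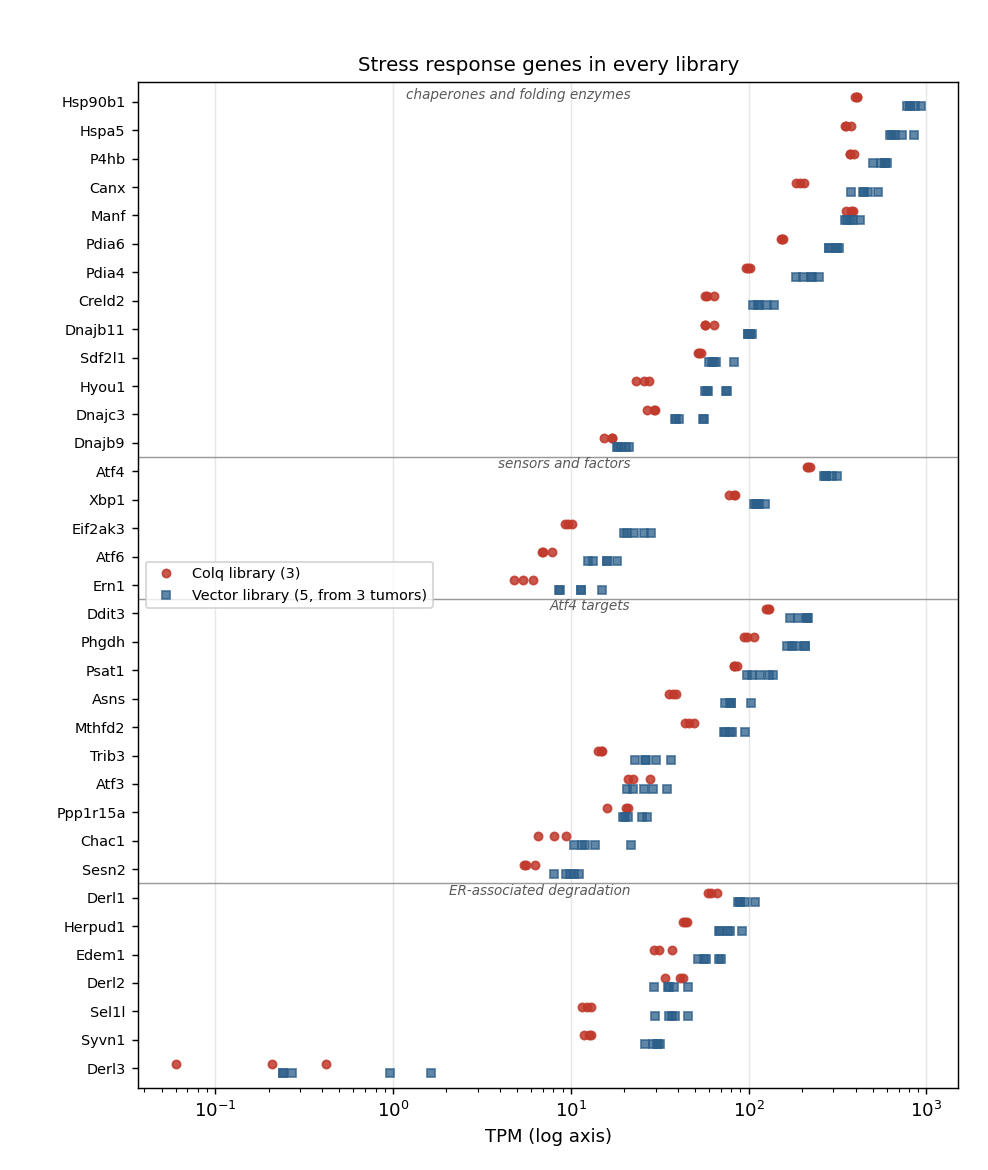
TPM of each of the 35 genes on a log axis, by role and ordered by level; circles are the 3 Colq libraries and squares the 5 Vector libraries, which come from 3 tumors. For 30 genes all circles lie left of all squares; Manf, Atf3, Ppp1r15a, Derl2 and the scarce Derl3 overlap.

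Of the 13 ER chaperones and folding enzymes, 12 fell on deposited TPM (92.3%, against 59.6% of all tested genes; median log2 fold change -0.98), all but Manf. After size factors 8 fell (61.5%, against 25.5% of all), Manf and Dnajb9 rose, and P4hb, Dnajc3 and Sdf2l1 were not called. Hspa5, the master chaperone of the ER (chromosome 2, 34771970 to 34777547, plus strand, GRCm38), stood at 350.1, 376 and 352 TPM in Colq tumors, against 638, 625, 667, 727 and 853 TPM in the Vector libraries. It averaged 359 ± 14.6 TPM in Colq tumors, against 727 ± 114 TPM in Vector tumors (mean ± SD, n = 3 per group), a log2 fold change of -1.003 (SE 0.11, limma adjusted p = 0.000129). The highest Colq tumor was well below the lowest Vector library. Hspa5 is shown because it defines the response, chosen after its values were seen, as were Hyou1 and Manf; the next 4 have the smallest p of the class.

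Pdia6, a protein disulfide isomerase, had 156, 152 and 155 TPM in Colq tumors, against 285, 309.9, 314, 283 and 322 TPM in the Vector libraries. Its log2 fold change was -0.98 (SE 0.05, limma adjusted p = 1.5e-05) and the groups did not overlap. Hsp90b1, the ER member of the Hsp90 family (GRP94), had 409, 397 and 405 TPM in Colq tumors, against 809, 783, 861, 814 and 934 TPM in the Vector libraries. The log2 fold change was -1.08 (SE 0.07, limma adjusted p = 2e-05). Canx, the membrane-bound lectin chaperone calnexin, had 204, 194 and 185 TPM in Colq tumors and 439, 379, 443, 473 and 535 TPM in the Vector libraries. For Canx the log2 fold change was -1.25 (SE 0.10, limma adjusted p = 3.95e-05). Each of these separated the groups without overlap, and each also fell after size factors, by 0.41, 0.50 and 0.68 on the log2 scale for Pdia6, Hsp90b1 and Canx. Pdia4, another disulfide isomerase, had 97.1, 102 and 98.9 TPM in Colq tumors and 202, 186, 224, 228 and 249.8 TPM in the Vector libraries. On the log2 scale the fold change was -1.155 (SE 0.09, limma adjusted p = 3.99e-05), and -0.58 after size factors. The lowest fold change of the class was that of Hyou1, an Hsp70-like exchange factor for Hspa5. Hyou1 had 25.9, 27.7 and 23.4 TPM in Colq tumors and 58.3, 59.0, 56.8, 74.6 and 76.0 TPM in the Vector libraries. Its mean in Colq tumors was 38.4% of that in Vector tumors, a log2 fold change of -1.34 (SE 0.11, limma adjusted p = 4.2e-05).

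The co-chaperones of Hspa5 had smaller fold changes, a difference that was not tested. Dnajb11 averaged 59.3 ± 4.21 TPM in Colq tumors, against 101 ± 0.631 TPM in Vector tumors, and Dnajc3, which also restrains eIF2 kinases, averaged 28.6 ± 1.49 TPM in Colq tumors, against 47.7 ± 8.18 TPM in Vector tumors (mean ± SD, n = 3 per group). Both fell, by 0.77 and 0.70 on the log2 scale, but after size factors only Dnajb11 was called (log2 fold change -0.20, limma adjusted p = 0.0284), while Dnajc3 was at -0.14 (limma adjusted p = 0.314). Dnajb9, which helps Hspa5 hold Ern1 inactive, had 17.1, 15.3 and 17.1 TPM in Colq tumors, against 19.2, 21.2, 20.5, 18.3 and 18.5 TPM in the Vector libraries. It is the single gene of the set whose call turned with the scale: it fell by 0.22 as deposited (SE 0.08, limma adjusted p = 0.0423) and rose by 0.33 after size factors (limma adjusted p = 0.0175). Its deposited call was lost on leaving out any tumor other than Vector replicate 3, with limma adjusted p of 0.067 to 0.138.

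The other members of the class spanned a wide range. Creld2, a secreted stress-induced protein, averaged 60.0 ± 3.85 TPM in Colq tumors, against 121 ± 9.72 TPM in Vector tumors and fell by 0.99 on the log2 scale. P4hb, the most abundant disulfide isomerase here, averaged 377 ± 12.2 TPM in Colq tumors, against 563 ± 19.8 TPM in Vector tumors. It fell by 0.57 as deposited and was at 0.0013 after size factors (limma adjusted p = 0.986). Sdf2l1, an Hspa5 cofactor, averaged 52.9 ± 1.16 TPM in Colq tumors, against 69.6 ± 11.5 TPM in Vector tumors. It fell by 0.38 on the log2 scale (limma adjusted p = 0.0175), a call lost without Colq replicate 3 (limma adjusted p = 0.0579), and without Vector replicate 3 the fall was 0.25. Manf, a small secreted protein induced by ER stress and held in the ER by Hspa5, had 389, 379 and 354 TPM in Colq tumors, against 349.5, 358, 387, 374 and 422 TPM in the Vector libraries. The groups overlapped (log2 fold change -0.040, limma adjusted p = 0.657), and after size factors Manf rose by 0.54 (limma adjusted p = 0.000677). The ratio of Hspa5 to Manf, a pair chosen after the values were seen, was 0.900, 0.992 and 0.9946 in Colq tumors, against 1.83, 1.75, 1.72, 1.95 and 2.02 in the Vector libraries. A ratio within a library does not depend on its scale, and the groups did not overlap.

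All 5 sensors and transcription factors fell as deposited, against 59.6% of all tested genes, and their median log2 fold change was -0.90. After size factors 3 of the 5 fell (60%, against 25.5% of all). Eif2ak3 (PERK), the kinase that links the ER to eIF2, had 9.60, 10.1 and 9.28 TPM in Colq tumors, against 22.8, 20.6, 19.9, 28.2 and 25.8 TPM in the Vector libraries. Its log2 fold change was -1.21 (SE 0.09, limma adjusted p = 3.06e-05), and -0.68 after size factors. Ern1 (IRE1) had 5.38, 6.11 and 4.78 TPM in Colq tumors, against 11.4, 8.63, 8.65, 14.9 and 11.5 TPM in the Vector libraries (log2 fold change -0.90, SE 0.12, limma adjusted p = 0.000315). The 2 portions of Vector tumor 2 were those at 8.65 and 14.9 TPM, the widest gap between portions among the 34 genes. Atf6 had 7.87, 7.03 and 6.90 TPM in Colq tumors, against 13.3, 12.5, 15.9, 16.04 and 18.2 TPM in the Vector libraries (log2 fold change -1.003, SE 0.13, limma adjusted p = 0.000366). All 3 sensors were lower in every Colq library than in any Vector library and fell after size factors too, Ern1 by 0.40 and Atf6 by 0.48 on the log2 scale. They are low in abundance and long, and once the trend of all genes with length and GC was removed, Eif2ak3 fell by 0.53 while Ern1 and Atf6 were at -0.085 and -0.20 (limma adjusted p = 0.567 and 0.241).

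The transcription factors Xbp1 and Atf4 had smaller fold changes than the sensors, a difference that was not tested. Xbp1 had 77.2, 83.7 and 82.9 TPM in Colq tumors, against 114, 108, 112, 110.5 and 123 TPM in the Vector libraries. Its log2 fold change of -0.50 (SE 0.07, limma adjusted p = 0.000398) was close to the median of all genes, and it was 0.075 after size factors (limma adjusted p = 0.381). Atf4 had 212, 222 and 217 TPM in Colq tumors, against 273, 294, 274, 267 and 312 TPM in the Vector libraries. It averaged 217 ± 4.57 TPM in Colq tumors, against 289 ± 21.6 TPM in Vector tumors (mean ± SD, n = 3 per group) and fell by 0.41 on the log2 scale as deposited (SE 0.06, limma adjusted p = 0.000899), while after size factors it was at 0.17 (limma adjusted p = 0.076). The table counts genes and does not separate spliced from unspliced Xbp1.

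Of the 10 Atf4 targets, 8 fell as deposited (80%, against 59.6% of all tested genes), with a median log2 fold change of -0.74. After size factors 3 fell (30%, against 25.5% of all tested genes) and Atf3 rose. The enzymes of amino acid supply and one-carbon metabolism are given first. Asns, asparagine synthetase, had 35.6, 39.0 and 37.6 TPM in Colq tumors, against 80.1, 78.2, 79.5, 73.6 and 103 TPM in the Vector libraries. Its log2 fold change was -1.17 (SE 0.12, limma adjusted p = 9.8e-05), and -0.61 after size factors (limma adjusted p = 0.00395). Phgdh, the first enzyme of serine synthesis, had 97.9, 108 and 94.1 TPM in Colq tumors, against 185, 209, 177, 164 and 207 TPM in the Vector libraries (log2 fold change -0.93, SE 0.09, limma adjusted p = 7.95e-05). Psat1, the next enzyme of that pathway, averaged 84.0 ± 2.22 TPM in Colq tumors, against 121 ± 17.9 TPM in Vector tumors, fell by 0.51 on the log2 scale as deposited and was at 0.065 after size factors (limma adjusted p = 0.654). Mthfd2, a mitochondrial enzyme of one-carbon metabolism, had 44.0, 46.1 and 49.1 TPM in Colq tumors, against 72.5, 74.1, 78.3, 80.6 and 95.1 TPM in the Vector libraries (log2 fold change -0.81, SE 0.10, limma adjusted p = 0.000281), and after size factors was at -0.24 (limma adjusted p = 0.0749).

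The other targets act in cell death, feedback and stress signalling. Ddit3 (CHOP), the transcription factor tied to death under lasting stress, had 128, 130.2 and 126 TPM in Colq tumors, against 189.8, 214, 213, 217 and 172 TPM in the Vector libraries. It averaged 128 ± 2.08 TPM in Colq tumors, against 196 ± 22.0 TPM in Vector tumors (mean ± SD, n = 3 per group), a log2 fold change of -0.61 (SE 0.08, limma adjusted p = 0.000473) that was -0.033 after size factors (limma adjusted p = 0.776). Trib3, a pseudokinase that restrains Atf4, averaged 14.7 ± 0.378 TPM in Colq tumors, against 29.9 ± 6.25 TPM in Vector tumors. It fell by 0.96 as deposited and by 0.41 after size factors (limma adjusted p = 0.0395). Chac1, which degrades glutathione, averaged 8.02 ± 1.43 TPM in Colq tumors, against 15.1 ± 5.67 TPM in Vector tumors. Its log2 fold change was -0.79 (SE 0.24, limma adjusted p = 0.019), was -0.52 without Vector replicate 3, its highest library at 21.7 TPM, and was not called without Colq replicate 1 (limma adjusted p = 0.0708) or Colq replicate 2 (limma adjusted p = 0.051). Sesn2, a stress-induced brake on mTORC1, averaged 5.77 ± 0.434 TPM in Colq tumors, against 9.92 ± 1.02 TPM in Vector tumors, fell by 0.69 and was at -0.18 after size factors (limma adjusted p = 0.211). Ppp1r15a (GADD34), which directs dephosphorylation of eIF2, averaged 19.2 ± 2.74 TPM in Colq tumors, against 22.4 ± 1.32 TPM in Vector tumors, with overlapping groups (log2 fold change -0.21, limma adjusted p = 0.131), and was at 0.33 after size factors (limma adjusted p = 0.0624). Atf3, a stress-induced transcription factor, had 22.4, 27.9 and 21.0 TPM in Colq tumors, against 25.7, 22.3, 29.2, 34.8 and 20.7 TPM in the Vector libraries, also overlapping (log2 fold change -0.085, limma adjusted p = 0.669), and rose by 0.47 after size factors (limma adjusted p = 0.0445).

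Of the 6 tested genes of ER-associated degradation, 5 fell, all but Derl2 (83.3%, against 59.6% of all tested genes). The median log2 fold change of the 6 was -0.87. After size factors 3 fell (50%, against 25.5% of all) and Derl2 rose. Sel1l, the adaptor of the Hrd1 ubiquitin ligase (chromosome 12, 91806043 to 91849157, minus strand, GRCm38), had 12.4, 12.96 and 11.5 TPM in Colq tumors, against 38.6, 35.5, 29.7, 45.6 and 37.2 TPM in the Vector libraries. The values at 29.7 and 45.6 TPM were the 2 portions of Vector tumor 2, a gap that the SD over tumors leaves out. Sel1l averaged 12.3 ± 0.720 TPM in Colq tumors, against 37.3 ± 0.300 TPM in Vector tumors (mean ± SD, n = 3 per group). The mean in Colq tumors was 32.9% of the level in Vector tumors. This was the lowest fold change of the 34 genes (log2 -1.52, SE 0.07, limma adjusted p = 1.19e-05), below which 1.36% of all tested genes lay, and it was -0.98 after size factors (limma adjusted p = 4.69e-05). Syvn1, the Hrd1 ligase itself, had 12.98, 12.7 and 11.8 TPM in Colq tumors, against 31.9, 29.2, 26.3, 30.6 and 30.9 TPM in the Vector libraries. Its log2 fold change was -1.195 (SE 0.08, limma adjusted p = 2.15e-05), and -0.65 after size factors, so that both parts of the ligase fell on either scale.

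Herpud1, a membrane protein that gathers the ligase complex, had 44.1, 45.2 and 43.0 TPM in Colq tumors, against 68.7, 78.5, 67.8, 76.9 and 91.4 TPM in the Vector libraries (log2 fold change -0.82, SE 0.10, limma adjusted p = 0.000214), and was at -0.25 after size factors (limma adjusted p = 0.053). Edem1, which trims mannose to mark glycoproteins for disposal, had 37.0, 29.2 and 31.3 TPM in Colq tumors, against 57.9, 51.8, 56.1, 68.4 and 70.2 TPM in the Vector libraries (log2 fold change -0.92, SE 0.12, limma adjusted p = 0.000317), and fell by 0.36 after size factors. The 3 derlins, membrane proteins of the same route, gave different results. Derl1 averaged 62.1 ± 3.61 TPM in Colq tumors, against 96.4 ± 10.9 TPM in Vector tumors, fell by 0.62 as deposited and was at -0.051 after size factors (limma adjusted p = 0.635). Derl2 had 34.1, 42.7 and 40.9 TPM in Colq tumors, against 29.6, 35.3, 38.2, 35.7 and 45.5 TPM in the Vector libraries. The groups overlapped (log2 fold change 0.043, limma adjusted p = 0.791), while after size factors Derl2 rose by 0.60 (limma adjusted p = 0.00721). Derl3 was below the filter, at 0.06, 0.42 and 0.21 TPM in Colq tumors and 0.27, 1.63, 0.24, 0.96 and 0.24 TPM in the Vector libraries (exact two-sided permutation p = 0.2 over tumors, of which 0.1 is the smallest possible).

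**Figure D2:**
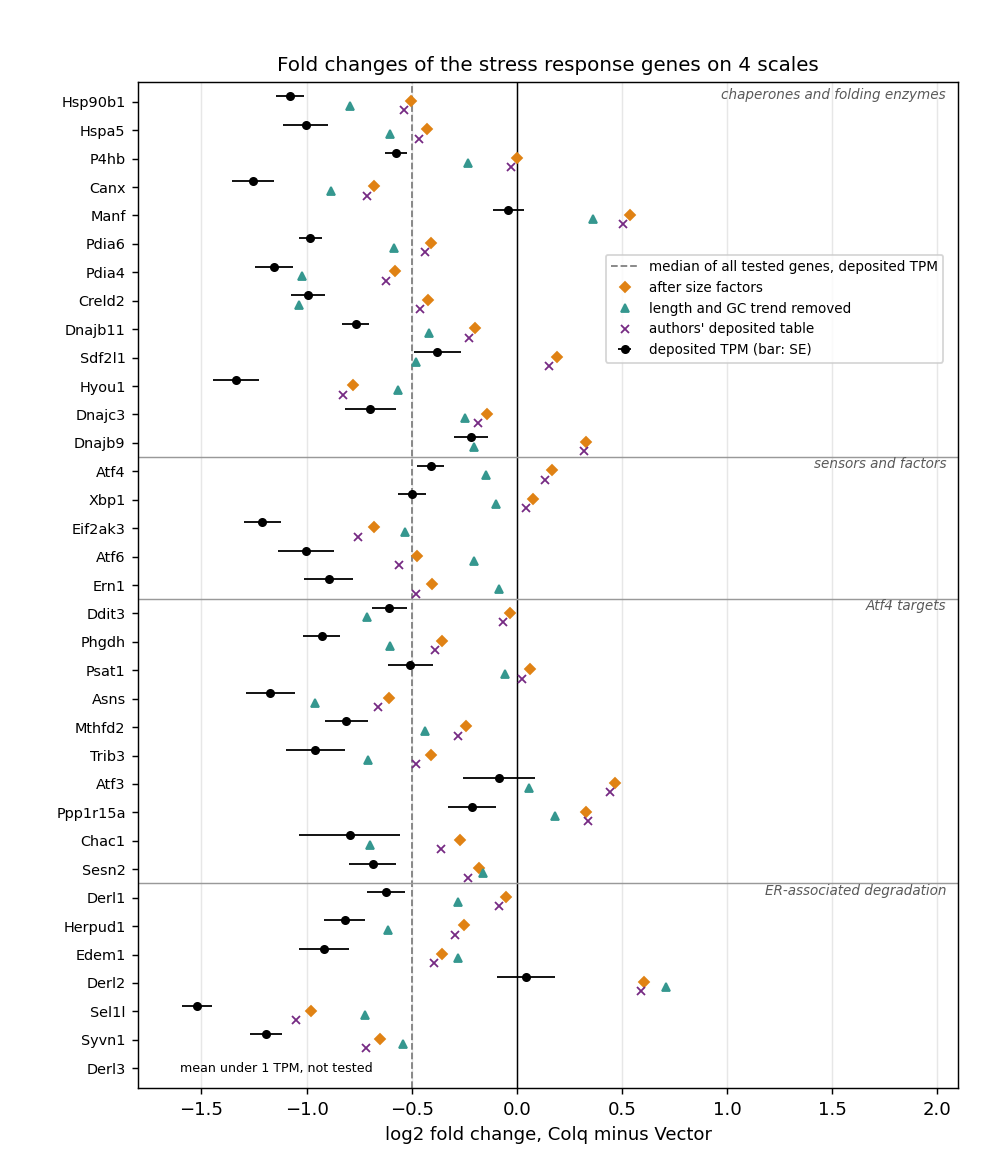
Log2 fold change (Colq minus Vector) of each gene on 4 scales, by role: deposited TPM with its SE, after size factors, without the length and GC trend, and in the authors' deposited table; the dashed line is the median of all tested genes on deposited TPM, -0.50. Sel1l and Hyou1 lie farthest left on deposited TPM, and Manf and Derl2 lie right of 0 after size factors.

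The chaperones and the Atf4 targets were set against each other directly. The mean log2(TPM + 1) over the 13 chaperones was 6.70 ± 0.03 in Colq tumors, against 7.51 ± 0.12 in Vector tumors. Over the 10 Atf4 targets it was 4.97 ± 0.04 in Colq tumors, against 5.65 ± 0.11 in Vector tumors (mean ± SD, n = 3 per group). Chaperones minus Atf4 targets came to 1.78, 1.72 and 1.69 in Colq tumors, against 1.81, 1.75, 1.98, 1.88 and 1.87 in the Vector libraries. With portions averaged, the difference was 1.78, 1.93 and 1.87 in Vector tumors, so the Colq tumors lay below all 3. The closest pair was 1.778 in Colq tumor 1 and 1.781 in Vector tumor 1. The single Vector portion at 1.75 lay below the highest Colq tumor. The chaperone median lay below the Atf4 target median by 0.24 on the log2 scale of fold changes. The gap was 0.16 without Vector replicate 2, 0.20 after size factors and 0.045 on removal of the length and GC trend. Both class means separated the groups in every library, and their difference did so only with portions averaged, by a narrow margin. Within the Atf4 arm, the ratio of Asns to Atf4 was lower in every Colq tumor: it was 0.168, 0.176 and 0.173 in Colq tumors, against 0.293, 0.266, 0.290, 0.276 and 0.331 in the Vector libraries. Ddit3 over Atf4 overlapped, at 0.602, 0.588 and 0.582 in Colq tumors and 0.695, 0.729, 0.778, 0.813 and 0.551 in the Vector libraries. For a single pair between the arms, Hspa5 over Ddit3 was 2.74, 2.89 and 2.79 in Colq tumors, against 3.36, 2.92, 3.13, 3.35 and 4.96 in the Vector libraries. The groups did not overlap, by a narrow margin (2.89 against 2.92). This order depends on the target taken: the log2 fold change of Asns, at -1.17, was below that of Hspa5, at -1.003. These 3 pairs were chosen after the values were seen.

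Melanocyte markers were lower in Colq tumors by a similar amount, so the summed TPM of each role was also read per 1000 TPM of those 12 markers, a ratio added after the data were seen. The chaperones stood at 167 to 170 in Colq tumors and 161 to 185 in Vector libraries, and the Atf4 targets at 34.6 to 36.4 in Colq tumors and 31.2 to 36.6 in Vector libraries, so that both overlapped. The overlap of the chaperones rests on Manf: without it they stood at 138 to 141 in Colq tumors, all below the 145 to 167 of the Vector libraries. Manf was left out as the only chaperone not called lower on deposited TPM, a choice that by itself lowers the Colq values against the Vector values. Without Atf3 and Ppp1r15a, left out by the same rule, the Atf4 targets still overlapped, at 31.3 to 33.1 in Colq tumors and 28.7 to 34.6 in Vector libraries. The chaperones, Manf included, were also lower without overlap if Pmel, the most abundant marker, was left out of the 12. They then stood at 219 to 224 in Colq tumors and 229 to 259 in Vector libraries. The Atf4 targets still overlapped without Pmel, at 45.8 to 48.2 in Colq tumors and 43.6 to 52.2 in Vector libraries. The sensors and factors, of which Atf4 and Xbp1 make up most, stood at 23.6 to 24.9 in Colq tumors and 18.2 to 20.4 in Vector libraries, and the degradation genes at 15.1 to 15.8 in Colq tumors and 14.5 to 14.8 in Vector libraries, both without overlap and higher in Colq tumors. The order of the degradation genes rests on Derl2, left out by the same rule. Without it they stood at 12.4 to 12.6 in Colq tumors and 12.8 to 13.4 in Vector libraries, lower in Colq tumors. Without Pmel among the markers, the groups overlapped for the 7 degradation genes. Without Atf4 the other sensors and factors overlapped by a narrow margin, at 7.55 to 8.07 in Colq tumors and 6.81 to 7.59 in Vector libraries.

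**Figure D3:**
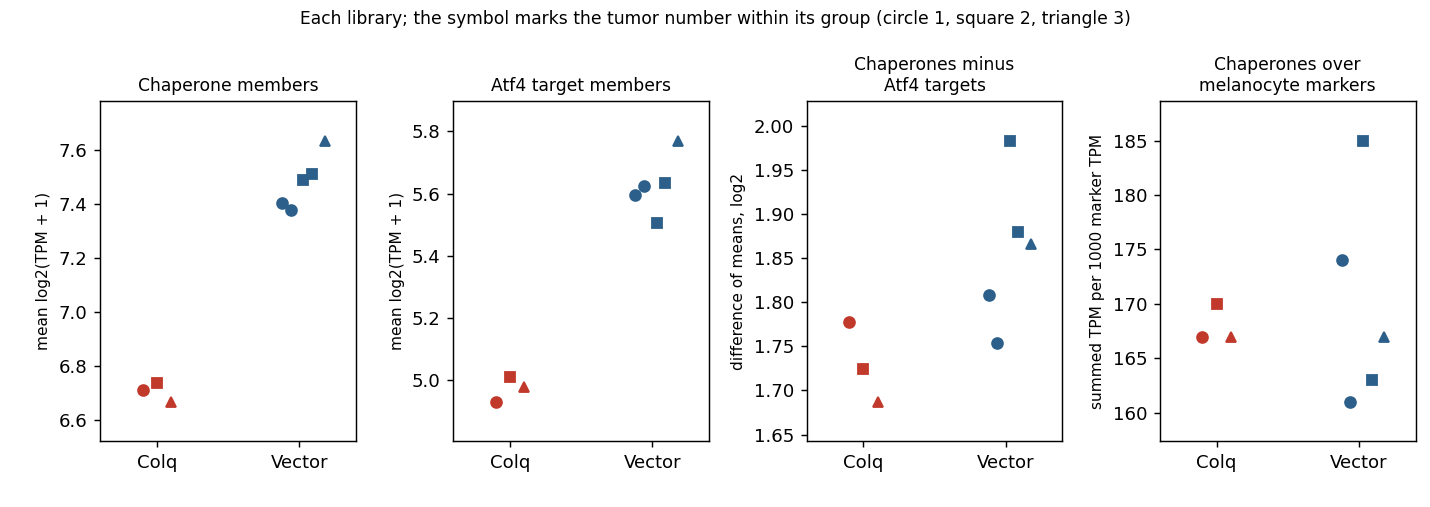
Each library of the Colq (left) and Vector (right) groups, with the symbol giving the tumor number: mean log2(TPM + 1) of the chaperones, of the Atf4 targets, their difference, and summed chaperone TPM per 1000 TPM of melanocyte markers. Both class means separate the groups, while single libraries overlap in the difference and in the ratio to melanocyte markers, which for the ratio rests on Manf.

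The authors' deposited table, a DESeq2 comparison, gave 19 of these 34 genes as lower (55.9%, against 20.4% of its 19153 genes with an adjusted p) and 4 as higher (11.8%, against 20.1%). Among the 13068 genes of the authors' deposited table that also passed the filter of 1 TPM, 28.6% were lower and 24.9% higher. Its calls were the same as those after size factors for 32 of 34 genes; the authors' deposited table also called Mthfd2 and Herpud1 lower. In the authors' deposited table Sel1l had a log2 fold change of -1.05, Hyou1 -0.83 and Eif2ak3 -0.75, and Derl2 0.59 and Manf 0.51. With the length and GC trend removed, 21 of the 34 fell (61.8%, against 26.5% of all genes with a length) and 2 rose, Manf and Derl2, where 19% of all genes rose. On all 4 scales 14 genes fell: the chaperones Hspa5, Hsp90b1, Canx, Pdia4, Pdia6, Dnajb11, Creld2 and Hyou1, the sensor Eif2ak3, the Atf4 targets Trib3, Asns and Phgdh, and both parts of the Hrd1 ligase, Syvn1 and Sel1l. The share of all tested genes that fell on all 4 scales was not computed. These scales are readings of the same series and not independent evidence.

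Within a group, the median SD of the 34 genes on the log2 scale was 0.072 over Colq tumors and 0.161 over Vector tumors, against 0.094 and 0.141 for all tested genes. Between the 2 portions of Vector tumor 1 their median absolute difference was 0.12 on the log2 scale, with 16 of 34 higher in the second portion, and between those of Vector tumor 2 it was 0.12, with 22 of 34 higher in the second. Over all tested genes the same differences were 0.14 and 0.22.

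Longer genes had lower fold changes in the whole table. Across the 34 genes the fold change and the log2 of exonic length, taken from the GRCm38 GENCODE M21 annotation, had a Pearson r of -0.31 and a Spearman rho of -0.35; across all 13211 tested genes with a length, r was -0.51. These are descriptions across genes, which share their libraries and are not replicates. Exonic length here is the union of all annotated exons of a gene, so it can exceed the length of the mRNA expressed. By that measure Sel1l and Hyou1 are long and low, while Derl2 is of similar length and did not fall, and Creld2 is short and fell.

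**Figure D4:**
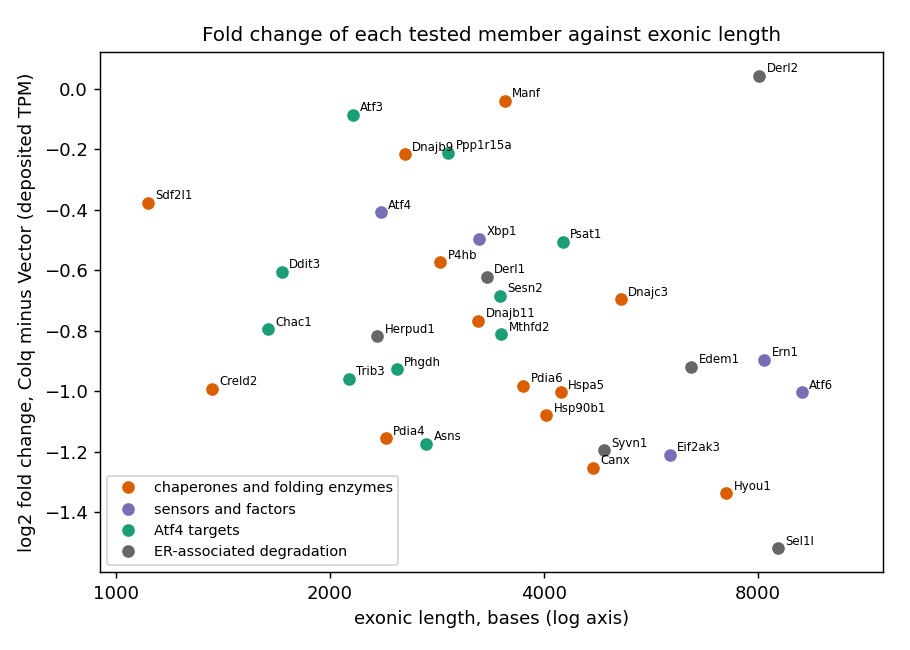
Log2 fold change on deposited TPM (Colq minus Vector) of each of the 34 tested genes against exonic length in bases on a log axis, coloured by role. The points slope down to the right, Pearson r of -0.31, with Derl2 at the upper right and Creld2 and Pdia4 low on the left.

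Fold changes were then read by the promoter elements shown above. All 7 tested genes of the set with ERSE fell, with log2 fold changes of -1.25 for Canx to -0.70 for Dnajc3 and a median of -1.003. After size factors 6 fell, with a median of -0.43. In all other genes with ERSE in the window, 12 were tested and 8 fell (66.7%, against 59.6% of all tested genes), with a median of -0.71, and after size factors 5 fell (41.7%, against 25.5%) and 3 rose. Of the 5 genes with CARE, 4 fell as deposited (80%, against 59.6% of all tested genes) and Atf3 was not called, with a median of -0.82. After size factors Asns and Trib3 fell (40%, against 25.5%) and Atf3 rose. Of the 275 other tested genes with CARE, 155 fell (56.4%) and 36 rose as deposited, with a median of -0.45, and 72 fell (26.2%) and 81 rose after size factors, shares close to those of all tested genes. The genes without a match in their window include Pdia4, Phgdh and Sel1l, which fell on all 4 scales.

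Further genes of the same processes, outside the 35, are given against the 59.6% of all tested genes that fell as deposited and the 25.5% that fell after size factors. Of 18 cytosolic and dual tRNA synthetases, many of them known Atf4 targets, all 18 fell, with a median of -1.003, and 12 fell after size factors (66.7%) with none higher. The isoleucyl, alanyl and glutamyl-prolyl enzymes Iars, Aars and Eprs had log2 fold changes of -1.79, -1.29 and -1.61. Of 21 tested other Atf4 targets, 16 fell (76.2%) and Map1lc3b, an autophagosome protein, rose by 0.56. After size factors 6 fell (28.6%) and 3 rose, near the share of all genes. The arginine transporter Slc7a1 was at -1.65, the serine hydroxymethyltransferase Shmt2 at -1.25 and the transporter heavy chain Slc3a2 at -0.71. Of 22 other ER folding genes, 16 fell (72.7%) and Fkbp11, Cnpy2 and Selenof rose, by 0.37, 0.22 and 0.32. After size factors 6 fell (27.3%) and 7 rose, again near the share of all genes. The glycan-processing proteins Ganab, Prkcsh and Uggt1 were at -1.27, -1.10 and -1.48.

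Of 24 other degradation and translocation genes, 20 fell (83.3%), among them the lectin Os9 at -1.28, the segregase Vcp at -1.41 and the Vcp cofactor Ubxn4 at -0.98. The 3 that rose were Sec61g by 1.35, Sec61b by 0.73 and Ssr4 by 0.66, while other subunits of the same translocation channel and its associated complex fell, Sec61a1 by 1.17, Ssr1 by 0.90, Ssr2 by 0.44 and Ssr3 by 0.47. After size factors 9 of the 24 fell (37.5%) and 5 rose. Of 21 other kinases and regulators of the response, 15 fell (71.4%), with the membrane-bound factor Creb3l2 at -1.51, Eif2b3, a subunit of the eIF2 exchange factor, at -0.96, and Tmbim6, a restraint on Ern1, at -0.93, and the stress protein Nupr1 rose by 0.32. After size factors 7 fell (33.3%) and 7 rose. Of 20 cytosolic heat shock genes, 16 fell (80%) and none rose, with a median of -0.87. After size factors 11 were lower (55%) and 4 higher. Hsp90ab1, Hspa8 and Hsp90aa1 were at -1.38, -1.03 and -1.09. Of 14 mitochondrial chaperones and proteases, 11 fell (78.6%), with Lonp1 at -1.08, Hspa9 at -1.03 and Afg3l2 at -0.91, and Hspe1 and Grpel1 rose by 0.85 and 0.38. After size factors 5 fell (35.7%) and 4 rose, with a median of 0.021. Genes of these lists that rose, and the Sec61 and Ssr subunits that fell, are named after their values were seen.

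**Figure D5:**
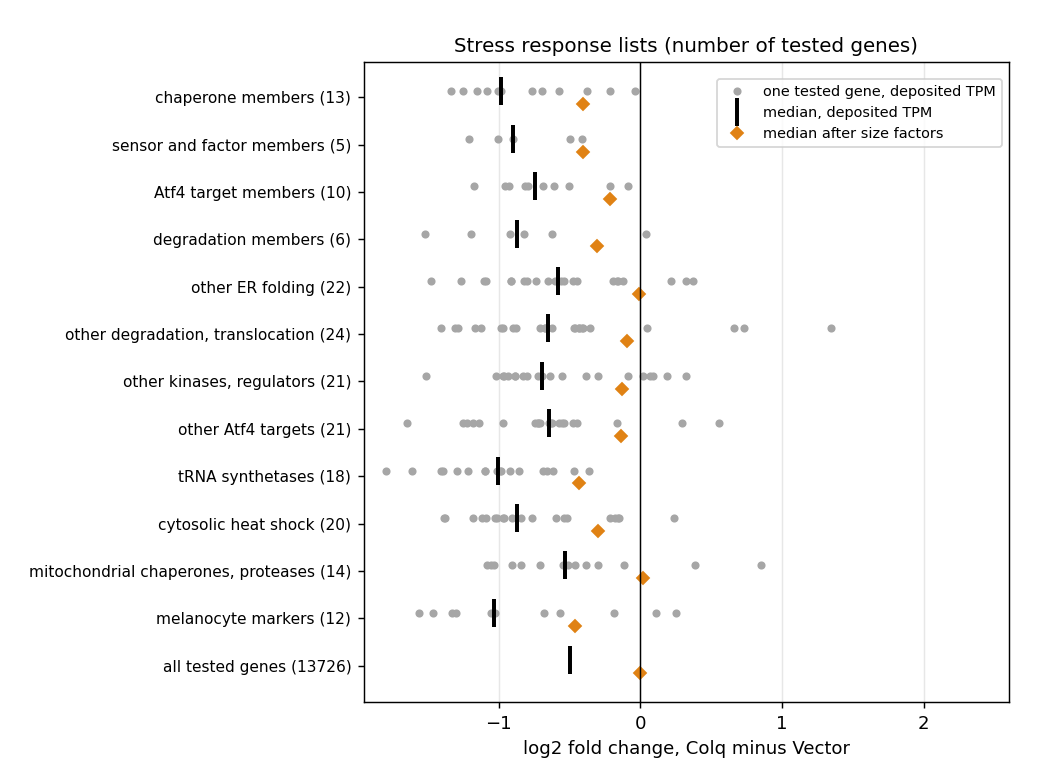
Log2 fold change (Colq minus Vector) of every tested gene in each list (grey), with the median on deposited TPM (black bar) and after size factors (diamond); numbers in brackets are tested genes. The tRNA synthetases and the chaperones have medians of -1.003 and -0.98, against -0.50 for all tested genes, and Sec61g stands far right.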

How the data were processed

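Sequencing of poly-A RNA did not keep strand, per the labels' protocols, so reads of overlapping antisense genes may be mixed. The deposited values are log2(TPM + 1), as the values themselves show (99.87% of rows return to TPM with 2 decimals, tolerance 1e-4). Per the submitters' processing notes, RSEM and build mm39 were used; versions and annotation: not given in the sources used here. TPM keeps no depth, so depth is unknown. The authors' deposited comparison comes from DESeq2, named in the submitters' processing notes. Per the file headers its columns are a normalized signal averaged per gene, log2 fold changes, a score (Wald) and p-values. Only the log2 values and adjusted p-values of the authors were taken. Its libraries are not stated, and the positive sign of Colq (5.48) gave its direction. Its IDs matched symbols for 26581 of 27664 genes (96.1%).

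Portions of a tumor were averaged on the log2 scale. Genes with a mean of at least 1 TPM were fitted on log2(TPM + 1) in R 4.3.3 by limma 3.58.1 (lmFit, then eBayes with a trend), with Benjamini-Hochberg adjustment over all 13726 genes and calls at an adjusted p under 0.05. Fold changes are Colq minus Vector on that scale, which understates changes of low genes. TPM means and SDs are over tumors. The fit was tested on simulated data. Size factors were medians of ratios of TPM; the length and GC trend was a loess fit (span 0.5) over 13211 genes (96.2%) with GRCm38 GENCODE M21 exonic length and GC. Other alternatives were a pseudocount of 0.1, no filter, a minimum of 5 TPM, quantile normalization, portions averaged as TPM or taken singly, the Colq libraries as 1 sample, a replicate block and leaving out each tumor. Library values are given for the 4 genes of smallest p in each role, for Atf4, Xbp1 and Ddit3 and for genes whose call turns with size factors (Dnajb9), and 3 genes of smallest p are named per further list; Hspa5, Hyou1, Manf, Atf3, Derl2 and Derl3 were added after their values were seen. The members and lists were chosen with earlier results of these data known. The receptor repertoire table was not used here. Figures were drawn with matplotlib 3.10.9 in Python 3.11.15.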

Additional observations from a re-analysis of the deposited data

How the results depend on the processing

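The count of stress response genes that fell was 28 to 30 on leaving out each tumor in turn (none rose in any of these fits, 0 to 0), with 1310 to 1549 of all genes higher and 7484 to 8216 lower; the chaperone median ranged from -1.001 to -0.88, the Atf4 target median from -0.80 to -0.67, and their difference from -0.29 to -0.16. After size factors 4 rose and 17 fell, with 3843 genes higher and 3505 lower in all, and medians of -0.41 for chaperones and -0.21 for Atf4 targets. After quantile normalization 4 of the 34 rose and 22 fell, with 3142 of all 13726 tested genes higher and 4267 lower. The medians were -0.62 for chaperones and -0.30 for Atf4 targets, with a difference of -0.32. With the length and GC trend removed 2 rose, with 2509 genes higher and 3505 lower, medians of -0.57 and -0.52 and a difference of -0.045. With the first portions the difference was -0.31, and with the Colq libraries as 1 sample 788 genes were higher. The cause of these shifts was not tested.

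The direction of single genes turned as follows: after size factors P4hb (0.0013), Dnajb9 (0.33), Sdf2l1 (0.19), Manf (0.54), Xbp1 (0.075), Atf4 (0.17), Atf3 (0.47), Ppp1r15a (0.33) and Psat1 (0.065); after quantile normalization Dnajb9 (0.35), Sdf2l1 (0.064), Atf3 (0.47) and Ppp1r15a (0.36); with the trend removed Manf (0.36), Atf3 (0.058) and Ppp1r15a (0.18). With 1 tumor left out, Manf ranged from -0.099 to 0.027 and was also above 0 without Colq replicate 3 (0.00019), Atf3 ranged from -0.22 to 0.082, and Derl2 ranged from -0.068 to 0.17 and was at -0.020 without Colq replicate 2.

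Replicate numbers did not pair the tumors (correlations of same-numbered deviations 0.03, 0.007 and 0.044); with the replicate block 29 of the genes fell and none rose (0), with 1526 genes higher and 7928 lower, and Dnajb9 lost its call (limma adjusted p = 0.0804). Depth is unknown, and low genes such as Derl3 carry the widest relative error.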
